A study of Homo sapiens with 2 samples.

Results

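The nuclear-encoded subunits of the mitochondrial respiratory chain and ATP synthase were compared between PC9, a human lung adenocarcinoma line that is sensitive to EGFR tyrosine kinase inhibitors, and MTAC-P, a line derived from PC9 that resists them. Members were all symbols that begin with NDUFA, NDUFB, NDUFC, NDUFS or NDUFV and a number, with UQCR, with COX4 to COX8 or with ATP5, and the symbols SDHA to SDHD, where the table gave the biotype protein_coding. This pattern took 85 of 19089 protein-coding symbols, 37 for complex I, 4 for complex II, 7 for complex III, 18 for complex IV and 19 for complex V. Each line had 1 RNA-seq library, and the labels give the same serum-supplemented DMEM for both and mention neither an inhibitor during growth nor a genotype. MTAC-P is a single derived line, the labels do not say how it was selected, and with 1 library per line no difference below has a replicate check, a p-value or an error. The series text speaks of triplicates but does not say whether they were pooled.

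The respiratory chain passes electrons from NADH (complex I) and succinate (complex II) through complex III and cytochrome c to oxygen at complex IV. Complexes I, III and IV pump protons across the inner mitochondrial membrane, and complex V uses the gradient to make ATP. Most subunits are encoded in the nucleus, while mitochondrial DNA encodes a small set of core membrane subunits of complexes I, III, IV and V. Promoters of many of the nuclear genes are known to bind nuclear respiratory factor 1, ETS family factors such as GABP, and YY1.

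The promoters of 3 members are shown, because COX5B and NDUFV1 are the members with the largest differences between the lines, and COX6A1, a subunit of the same complex as COX5B, was nearly equal in both. Each is the 250 bases before the RefSeq start site (GRCh38.p14), with capitals for the searched cores of nuclear respiratory factor 1 (GCATGCG), ETS factors (CCGGAAG) and YY1 (AAGATGG), on either strand. The COX5B window is chr2:97645812-97646061, + strand, the COX6A1 window chr12:120437863-120438112, + strand and the NDUFV1 window chr11:67606686-67606935, + strand.
COX5B: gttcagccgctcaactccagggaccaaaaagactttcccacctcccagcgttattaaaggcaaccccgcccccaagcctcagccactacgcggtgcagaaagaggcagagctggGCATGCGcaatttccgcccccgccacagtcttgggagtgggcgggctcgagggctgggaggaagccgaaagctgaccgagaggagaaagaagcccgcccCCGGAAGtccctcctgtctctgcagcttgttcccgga
COX6A1: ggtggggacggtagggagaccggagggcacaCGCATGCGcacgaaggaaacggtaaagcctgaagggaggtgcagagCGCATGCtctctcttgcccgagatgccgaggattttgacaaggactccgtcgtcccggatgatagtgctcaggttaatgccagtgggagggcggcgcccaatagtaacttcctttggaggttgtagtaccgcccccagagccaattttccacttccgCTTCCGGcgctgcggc
NDUFV1: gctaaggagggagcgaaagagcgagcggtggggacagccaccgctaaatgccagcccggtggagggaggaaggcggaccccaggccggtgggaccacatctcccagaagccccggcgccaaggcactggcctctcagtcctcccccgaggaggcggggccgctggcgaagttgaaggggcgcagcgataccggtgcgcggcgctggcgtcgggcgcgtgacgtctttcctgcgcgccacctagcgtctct
The COX5B window held the core of nuclear respiratory factor 1 starting 136 bases before the start site and an ETS core starting 37 bases before it. The COX6A1 window also held both kinds of core, while the NDUFV1 window held none of the 3. RefSeq and GENCODE place the start sites differently, and the NDUFV1 window lies inside the longer span that GENCODE gives this gene. On windows that run on to 50 bases past the start site, RefSeq gave 67 members a promoter. The core of nuclear respiratory factor 1 was in 12 of these (17.9%) against 5.14% of 15843 coding promoters and 4.13% of all 27305 promoters in the table. The ETS core was in 18 (26.9%) against 14.2% and 10.7%, and the YY1 core in 15 (22.4%) against 6.40% and 6.06%. A match describes the letters only. Matches of the palindromic core of nuclear respiratory factor 1 on opposite strands can overlap. Members with the core of nuclear respiratory factor 1 had a median log2 ratio (MTAC-P over PC9, defined below) of -0.19 (12 compared) and members without it -0.15 (50 compared). The medians were -0.23 and -0.14 for the ETS core (18 and 44 compared), and -0.15 and -0.15 for the YY1 core (15 and 47).

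A member's level was the sum of FPKM (fragments scaled to transcript length and library size) over its listed protein-coding rows, and the comparison was log2((MTAC-P + 1)/(PC9 + 1)), the log2 ratio. Pairs of levels are given with PC9 before MTAC-P. All coding symbols with a mean of at least 1 FPKM were compared, 10569 in all, and 77 of the 85 members were among them. The tables list 65535 transcripts each, with sums of 693444 and 685082, and the reads behind any value are unknown. Mitochondrially encoded transcripts took 23.5% of the PC9 sum and 20.3% of the MTAC-P sum. All 5 epithelial markers were compared and had summed levels of 3229 and 3462 FPKM. KRT18 supplied most of this sum and was the only one higher in MTAC-P (2328.5 and 2719.6). KRT19 (549 and 430), KRT8 (155 and 122), EPCAM (161 and 156) and CDH1 (35.15 and 35.13) were lower. Of 5 leukocyte markers 1 passed the filter (CD68, 22.2 and 28.8 FPKM) and supplied most of their sum (23.6 and 29.6). Of 4 endothelial markers 1 passed (CDH5, 3.34 and 4.13), with a sum of 3.42 and 4.20, and PECAM1 had no value. Of 5 fibroblast markers 1 passed (COL1A1, 1.20 and 1.33), with a sum of 2.30 and 2.72. None of 5 muscle markers passed (0.414 and 0.101), with MYH7 and MYH2 listed at 0 in both libraries.

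Most members were slightly lower in MTAC-P, and 2 were lower by more than 2-fold. The ratio lay below 0 for 58 of 77 members, where 52.1% of all coding symbols compared lay below 0, and the median was -0.14 against -0.02 for all coding symbols. The middle 50% of members lay between -0.30 and -0.0033, against -0.27 and 0.22 for all coding symbols. Past 2-fold, COX5B and NDUFV1 were lower and no member was higher. Of all coding symbols compared, 3.50% passed 2-fold downward and 2.87% upward (6.37% together), so the count of 2 in 77 was near the background. At 1.5-fold, 6 members were lower and 1 higher, against 10.2% and 8.16% of all coding symbols, and 70 of 77 lay within 1.5-fold. Summed over all members the levels were 16343 and 15071 FPKM, which is 2.36% and 2.20% of each table's sum.

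**Figure D1:**
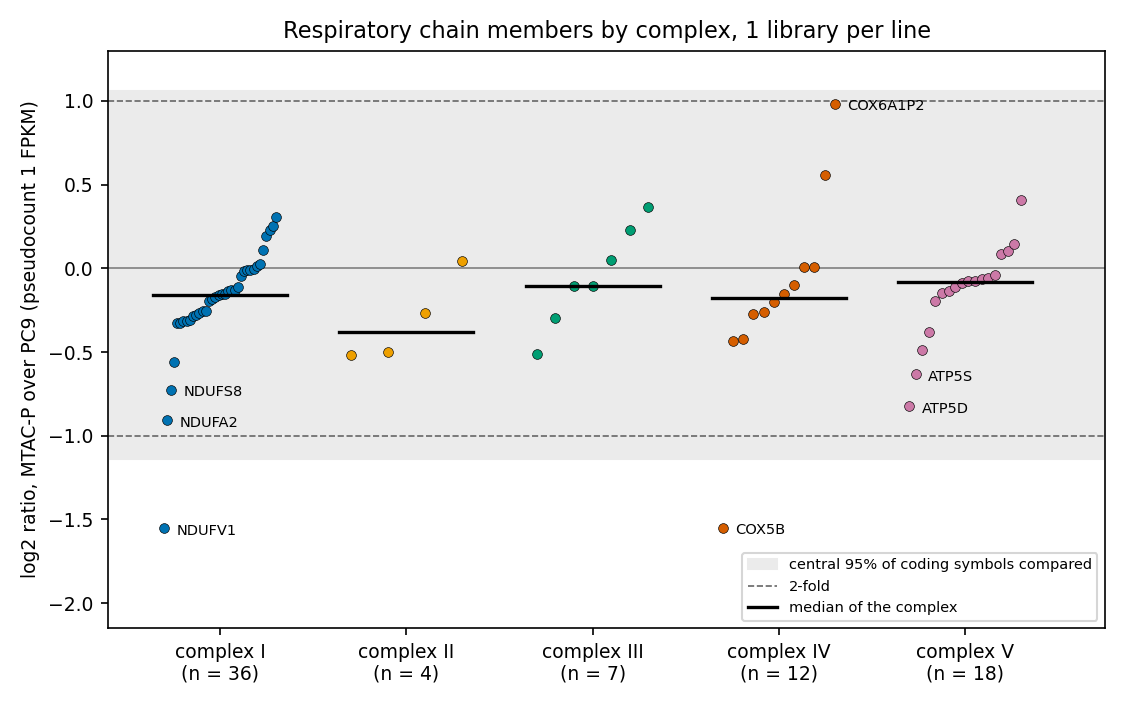
Log2 ratio (y axis, MTAC-P over PC9, pseudocount 1 FPKM) of each of the 77 members compared, by complex (x axis), each point a member and each black line the median of a complex. The grey band holds the central 95% of all coding symbols compared (-1.14 to 1.06) and dashed lines mark 2-fold. COX5B and NDUFV1 lie below the band, and all complex medians lie below 0.

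COX5B encodes a nuclear subunit of cytochrome c oxidase that binds zinc (chromosome 2, 97646040 to 97648383, GRCh38). Its level was 459 FPKM in the PC9 library but 156 FPKM in that of MTAC-P, 2.94-fold lower on the FPKM scale. The log2 ratio was -1.55. This value comes from 1 transcript, which is the only coding transcript of the gene in GENCODE release 29. Pseudogenes of COX5B exist and could share reads with it, and the most abundant of those listed, COX5BP7, stood at 0.310 and 0.317 FPKM. Of 3 coding neighbours compared within 500 kb, none reached 2-fold and their median ratio was 0.00.

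NDUFV1 encodes the complex I subunit that carries the flavin and accepts electrons from NADH (chromosome 11, 67605653 to 67612554). Its level was 17.5 FPKM in the PC9 library but 5.31 FPKM in that of MTAC-P, 3.30-fold lower on the FPKM scale. With the pseudocount of 1 FPKM the log2 ratio was -1.55. The tables list 2 of its 12 GENCODE coding transcripts, and 1 of these held 98.4% of the value in PC9 and 94.9% in MTAC-P. Within 500 kb, 22 other coding genes were compared, 16 lay below 0, none passed 2-fold downward, 1 passed it upward and their median was -0.29. NDUFS8, whose start lies 418 kb beyond the end of NDUFV1, encodes an iron-sulfur subunit of the same complex and had a ratio of -0.72.

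Complex I was represented by 36 members compared, 29 below 0 and 7 above, with a median of -0.16 and summed levels of 5124 and 4676 FPKM. The 7 nuclear core subunits, which include the carriers of the redox centres, had a median of -0.31 and 6 lay below 0. Among them NDUFS8 stood at 91.7 and 55.1 FPKM, and NDUFS3 at 34.1 and 22.9 (-0.56). NDUFS7, which holds the last iron-sulfur cluster, stood at 6.72 and 5.25 (-0.31), and NDUFS1, the largest subunit, at 15.8 and 14.4 (-0.13). NDUFV2, the partner of NDUFV1 in the NADH-oxidising module, stood at 136 and 134 (-0.01).

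The 29 accessory subunits had a median of -0.15, with 23 below 0 and values from -0.91 to 0.25. NDUFA2, a small subunit of the NADH-oxidising arm, stood at 63.0 and 33.1 FPKM (-0.91) and had 1 of 2 coding transcripts listed. The most abundant were NDUFS5 (746 and 723, -0.04), NDUFB9 (395 and 393, -0.01) and NDUFA1 (399 and 320, -0.31). The 11 NDUFB subunits, which belong to the membrane arm, lay within a narrow range of -0.28 to 0.25 around a median of -0.15, and the largest ratio among them was that of NDUFB4 (207 and 247). NDUFB9 and NDUFB2 (301 and 304, 0.01) were almost equal in both libraries. NDUFA13, also known as GRIM19, stood at 116 and 97.0 (-0.26), or -1.12 over the rows that GENCODE types as coding. The latter leaves out its most abundant row (89.2 and 85.2 FPKM), which was not found in GENCODE 29 and so has no type. NDUFA4, named for complex I but now known as a subunit of complex IV, stood at 15.4 and 12.5 (-0.29). Its paralog NDUFA4L2, a gene known to be induced by hypoxia, did not pass the filter, at 0.211 and 0.126 FPKM.

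Complex II, succinate dehydrogenase, is encoded wholly in the nucleus, and 3 of its 4 subunits lay below 0 (median -0.38). The flavoprotein SDHA stood at 98.0 and 69.0 FPKM (-0.50), and the iron-sulfur subunit SDHB at 7.31 and 4.80 (-0.52). Of the membrane anchors, SDHD stood at 58.3 and 48.3 (-0.27) and SDHC at 288 and 297 (0.04). SDHA, SDHB and SDHD each had 1 listed row, while SDHC had 4 of its 5 coding transcripts listed, so the subunits were not measured on equal terms.

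In complex III, cytochrome bc1, 4 of 7 members lay below 0, with a median of -0.10. UQCRH, the hinge protein that contacts the cytochrome c1 subunit, was the most abundant member of all, at 1151 and 1484 FPKM (0.37). UQCR10 stood at 421 and 494 (0.23) and UQCRQ at 590 and 548 (-0.10). The Rieske iron-sulfur protein UQCRFS1 had the lowest ratio, at 107 and 74.6 (-0.51). The core protein UQCRC2 stood at 29.3 and 30.4 (0.05) and UQCRB, with 1 of 4 coding transcripts listed, at 1.07 and 0.928 (-0.11). The summed levels of this complex were 2404 and 2717 FPKM, the 1 complex with a higher sum in MTAC-P, while its median was below 0. UQCRH was its largest part.

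UQCRC1, the other core protein, stood at 105 and 85.5 FPKM (-0.30), but most of this came from a transcript that GENCODE types as nonsense-mediated decay (94.5 and 80.2). Its only GENCODE coding transcript stood at 9.47 and 3.54, a log2 ratio of -1.21.

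Of the 18 members of complex IV, 12 were compared and 8 of these lay below 0 (median -0.18). COX8A stood at 1140 and 843 FPKM (-0.43), COX6A1 at 729 and 732 (0.01) and COX6B1 at 609 and 509 (-0.26). COX4I1, the main isoform of the largest nuclear subunit, stood at 316 and 319 (0.01), COX7C at 354 and 293 (-0.27), COX7B at 308 and 277 (-0.15) and COX6C at 182 and 136 (-0.42). COX7A2L, a factor in the joining of complexes III and IV into supercomplexes, stood at 138 and 129 (-0.10). COX5A, another nuclear subunit, was low in both libraries, at 1.44 and 2.59 (0.56), with 1 of 6 coding transcripts listed. COX7A2 stood at 26.7 and 23.1 (-0.20), or -1.80 over the rows that GENCODE types as coding. The latter held only 2.85 and 0.108 FPKM, since the most abundant row (23.9 and 23.0) was not found in GENCODE 29. The summed levels of the complex were 4265 and 3424 FPKM, and COX5B and COX8A together supplied most of that gap.

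The other 6 members of complex IV did not pass the filter, and all are isoforms restricted to certain tissues. COX4I2, COX6A2, COX6B2 and COX7B2 were listed at 0 in both libraries, COX7A1 stood at 0.197 and 0.323 FPKM, and COX8C was listed at 0 in PC9 and stood at 0.317 in MTAC-P. COX4I2 is known from lung and COX6A2 and COX7A1 from heart and skeletal muscle. Their widely expressed counterparts COX4I1, COX6A1, COX6B1, COX7A2, COX7B and COX8A all passed the filter. COX6A1P2, a symbol that names a copy of COX6A1, had the highest ratio of all members at 1.84 and 4.61 (0.98) and can share reads with COX6A1.

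**Figure D2:**
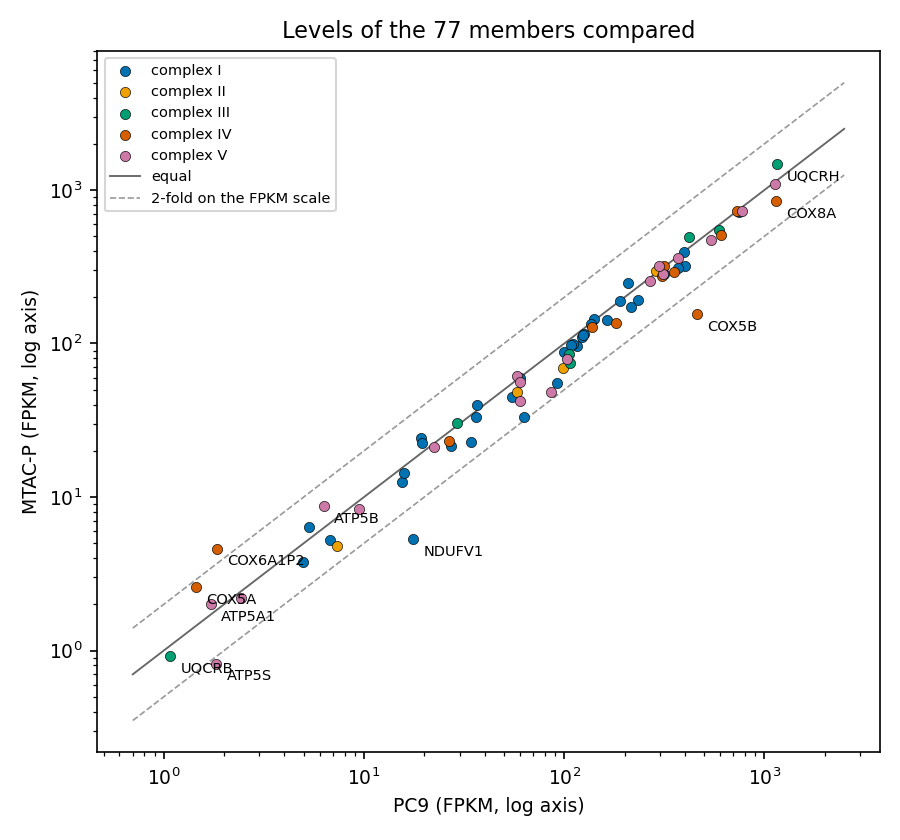
Level of each of the 77 members compared in PC9 (x axis) and MTAC-P (y axis), in FPKM on log axes, each point a member coloured by complex. The solid line marks equal levels and the dashed lines 2-fold on the FPKM scale, where COX5B and NDUFV1 lie well below the lower line. COX6A1P2 and ATP5S, both under 5 FPKM, also lie outside the lines.

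Complex V had 18 members compared, 14 of them below 0, with a median of -0.08. The 3 genes for the c subunit, which forms the rotor ring and whose mature protein is the same from all of them, lay below 0. They were ATP5G3 (768 and 728 FPKM, -0.08), ATP5G2 (103 and 78.7, -0.38) and ATP5G1 (59.9 and 42.4, -0.49). ATP5G3 supplied 82.5% of their sum in PC9 and 85.7% in MTAC-P. ATP5G1P4, a pseudogene symbol that matches this family, stood at 8.45 and 8.86 FPKM and was the only one of 36 pseudogene symbols of the pattern with a mean of at least 1.

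In the catalytic F1 head ATP5D, the delta subunit of the central stalk, stood at 86.3 and 48.3 FPKM (-0.82), the lowest ratio of complex V. ATP5E stood at 311 and 283 (-0.14) and ATP5C1 at 58.1 and 61.6 (0.08). The alpha and beta subunits, which form the hexamer that makes ATP, were low in both libraries, ATP5A1 at 1.72 and 2.01 (0.15) and ATP5B at 6.30 and 8.70 (0.41). The tables list 2 of 9 coding transcripts of ATP5A1 and 1 of 5 of ATP5B, and transcripts with later identifiers were not analysed here. The 4 subunits of the peripheral stalk lay between -0.09 and 0.10: ATP5F1 stood at 59.9 and 56.4, ATP5H at 370 and 360, ATP5J at 298 and 320 and ATP5O at 268 and 255. Of the ATP5F1 value, 96.8% and 95.3% came from a transcript that GENCODE types as a processed transcript, and over its coding row the gene stood at 1.92 and 2.65 (0.32), so its direction turned. Of the ATP5O value, 50.4% and 52.6% came from a transcript typed as nonsense-mediated decay. Over its coding rows ATP5O stood at 130 and 120 (-0.11). The membrane subunits ATP5J2 (1130 and 1086, -0.06), ATP5I (542 and 473, -0.20) and ATP5L (9.41 and 8.38, -0.15) were all below 0.

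The pattern also takes symbols that do not name a subunit of the enzyme. ATP5S stood at 1.83 and 0.820 FPKM (-0.63), ATP5SL, now known as a complex I assembly gene, at 22.3 and 21.3 (-0.06), and the read-through ATP5J2-PTCD1 at 2.44 and 2.19 (-0.11). ATP5EP2 was listed at 0 in both libraries and did not pass the filter. The 8 members that did not pass were thus ATP5EP2, NDUFA4L2 and the 6 of complex IV.

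Levels within a complex were far apart on the FPKM scale, although the subunits of each are present in fixed proportion in the enzyme. Among members compared, complex I ranged from 4.97 to 746 FPKM in the PC9 library and from 3.77 to 723 in the other. Complex V, without the symbols that name no subunit, ranged from 1.72 to 1130 and from 2.01 to 1086 FPKM. Both low ends came from genes listed in part, NDUFC2 (1 of 5 coding transcripts) and ATP5A1 (2 of 9). All GENCODE coding transcripts were listed for 29 members. Of these, 26 were compared, with 20 below 0 and a median of -0.12, against 38 of 51 below 0 and a median of -0.15 for members listed in part.

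The transcripts of members differed more than their sums. Of 166 listed transcripts 123 had a mean of at least 1 FPKM, and 16 of these (13.0%) were at 2-fold or more, 14 lower and 2 higher, in 12 genes. Of transcripts of all coding symbols 15.9% were at 2-fold or more in either direction, so the share in members was near the background. Shares by direction were not computed for all transcripts, so the 14 and 2 have no background beside them. NDUFA3, an accessory subunit of complex I, held 4 of the 16. Its transcript ENST00000391763 stood at 77.7 and 180.6 FPKM and took 21.0% of the gene's value in PC9 and 58.5% in MTAC-P. The transcript ENST00000303553 took 24.9% and 5.10% (91.8 and 15.7 FPKM). The sum for NDUFA3 stood at 369 and 309 (-0.26). In ATP5J, the transcript ENST00000400090 stood at 20.6 and 4.12 FPKM while the gene stood at a ratio of 0.10. Values of single transcripts that overlap rest on how the software divided shared reads, and no interval is given for them.

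**Figure D3:**
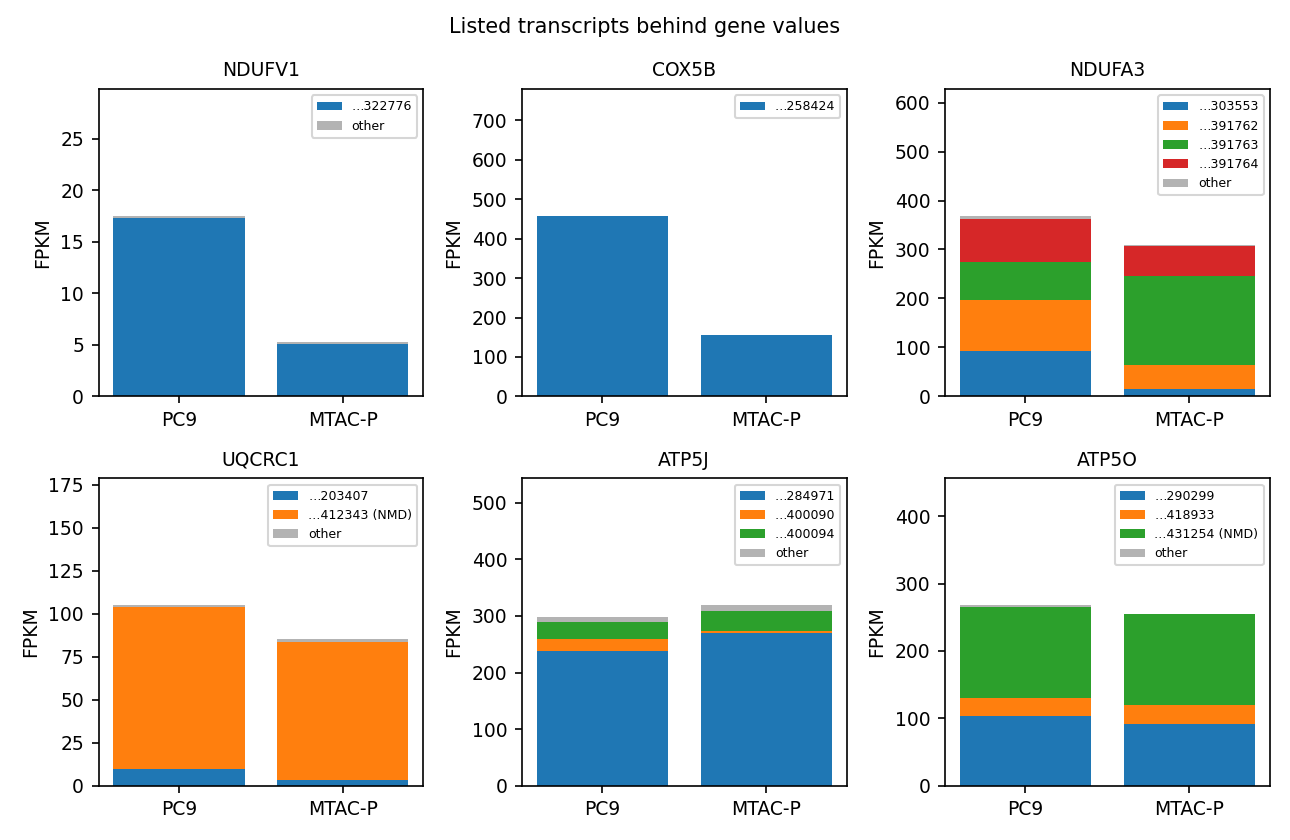
FPKM (y axis) of the listed transcripts of 6 members in PC9 and MTAC-P, stacked so that the bar height is the gene's value, with transcripts named by the last 6 digits of their Ensembl identifier and NMD for nonsense-mediated decay. Transcripts under 3% of the taller bar are joined in grey. NDUFV1 and COX5B differ in 1 transcript, and NDUFA3 differs in how its value is divided.

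Members were short and abundant compared with other genes. The most abundant transcript was under 1000 nt for 45 of the 73 members with a length (61.6%), against 12.9% of coding symbols compared. The median lengths were 778 and 2728.5 nt. Short members had a median log2 ratio of -0.15 and 36 of 45 lay below 0, while all 1283 coding symbols under 1000 nt had a median of -0.05, with 54.6% below 0. At a mean of at least 100 FPKM, 30 of 39 members lay below 0 with a median of -0.11. Of 767 coding symbols at that level 368 lay below 0, with a median of 0.02.

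By position, all 10 members compared on chromosome 19 lay below 0, with a median of -0.26. The 707 coding symbols compared there had a median of -0.14, with 497 below 0, so most other genes there also lay below 0. They include ATP5D, UQCRFS1, NDUFS7, NDUFB7, COX6B1, NDUFA13 and NDUFA3. All 7 members on chromosome 11 also lay below 0 (median -0.43), where 577 coding symbols had a median of -0.05, with 322 below 0. They were NDUFV1, NDUFS8, NDUFS3, COX8A, NDUFC2, SDHD and ATP5L. All 6 members on chromosome 2 lay below 0 (median -0.14), where 393 of 734 coding symbols did so (median -0.03). The 6 members on chromosome 5 also lay below 0 (median -0.20), where 234 of 428 coding symbols did so (median -0.04). The remaining chromosomes with at least 5 members compared were mixed, with 3 of 6 below 0 on chromosome 1, 3 of 5 on chromosome 7 and 1 of 5 on chromosome 12. Since 58 of all 77 members lay below 0, and the chromosomes described first were those with every member below 0, no pattern by position was tested.

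Other genes of the same pathway were compared by lists. All 13 mitochondrially encoded subunits lay below 0, with a median of -0.23, from MT-CO3 (14909 and 11412 FPKM, -0.39) and MT-CYB (4607 and 3616, -0.35) to MT-ND2 (-0.06) and MT-ND3 (9305 and 9264, -0.01). None reached 2-fold. Of 46 assembly factors compared, 25 lay below 0 (median -0.07), against 52.1% of all coding symbols compared. Among these factors 2 passed 2-fold downward and 2 upward, against 3.50% and 2.87% of all coding symbols. BCS1L, which inserts the Rieske protein into complex III, stood at 48.4 and 17.7 (-1.40), and COA5, a factor of complex IV assembly, at 27.0 and 10.4 (-1.29). TMEM126B (12.3 and 36.1, 1.48) and NDUFAF8 (9.20 and 28.9, 1.55), both factors of complex I assembly, were higher in MTAC-P.

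Of 11 other genes that feed or serve the chain, 9 lay below 0 (median -0.20). ETFDH, which passes electrons from fatty acid oxidation to ubiquinone, stood at 14.4 and 4.24 FPKM (-1.56), and its partner ETFB at 367 and 228 (-0.68). ETFDH was within 2-fold on its most abundant transcript alone (-0.24). SQRDL, the sulfide oxidase that also reduces ubiquinone, stood at 5.68 and 18.9 (1.57), and GPD2 had a ratio of 0.05. None of 15 genes listed as regulators of mitochondrial biogenesis reached 2-fold and their median was -0.03. GABPB1 (0.49) and MTERF1 (0.48) were highest and POLRMT (-0.38) and PPRC1 (-0.28) lowest. The list includes POLG (-0.23) and C10orf2 (-0.03), which are enzymes of mitochondrial DNA replication and not transcriptional regulators. The median is the value of C10orf2.

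TCA cycle enzymes (13 compared, 8 below 0) had a median of -0.11, with SUCLG1 (-0.42) at the low end and FH (0.24) and SUCLA2 (0.31) at the high end. Proteins of the large mitochondrial ribosomal subunit (48 compared, 30 below 0) had a median of -0.06, with MRPL15 (-0.91) and MRPL48 (-0.65) lowest and MRPL38 (0.43) and MRPL37 (0.40) highest. Glycolytic enzymes (17 compared, 9 below 0) had a median of -0.01, from ALDOA (-0.90) and PFKL (-0.41) to ENO1 and ENO2 (both 0.41). Only 2 of these 17 genes, and 3 of the 13 TCA cycle enzymes, had all their coding transcripts listed. None of these 3 lists held a gene at 2-fold with the pseudocount of 1 FPKM, while ALDOA (6.27 and 2.91 FPKM) stood at -1.08 with 0.1. Differences between lists were not tested, since each line has 1 library.

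**Figure D4:**
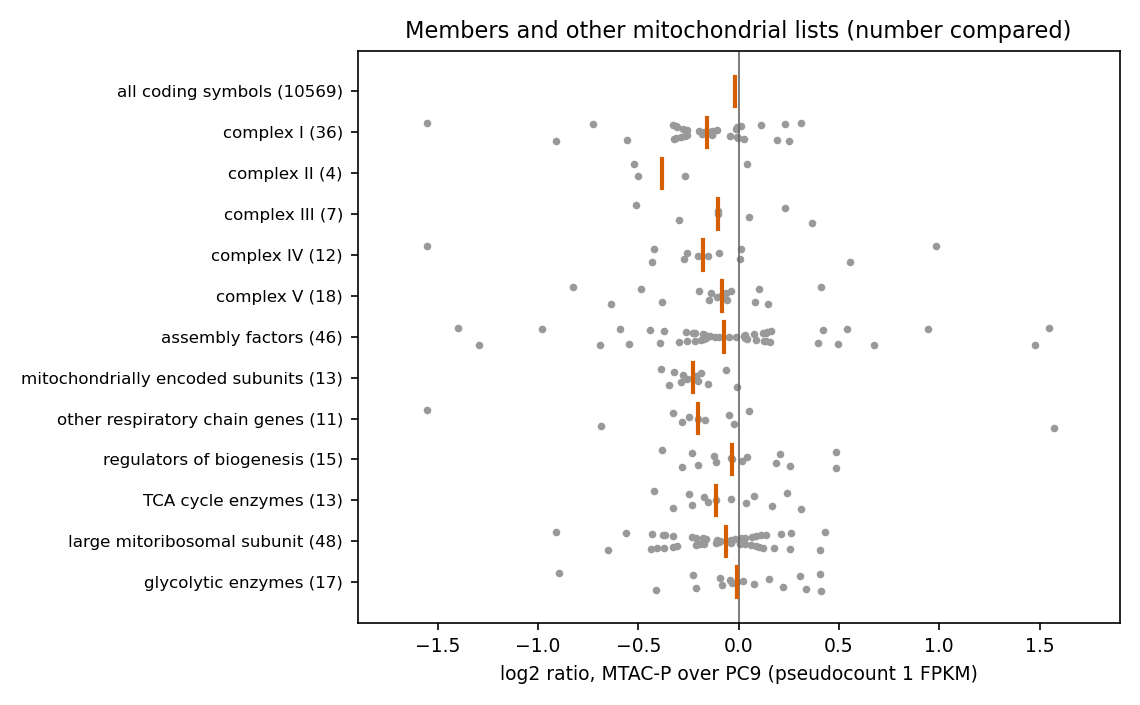
Log2 ratio (x axis, MTAC-P over PC9, pseudocount 1 FPKM) of the members by complex and of 7 other lists (y axis, number compared in parentheses), each grey point a gene and each orange bar a median. Medians run from -0.38 for complex II to -0.01 for glycolytic enzymes, and all coding symbols have -0.02.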

How the data were processed

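RNA-seq libraries of PC9 and MTAC-P were used, 1 per line. The submitters' processing notes name Trim Galore, TopHat, Cufflinks and the build hg38, with versions and annotation release not given in the sources used here. Each table the authors deposited holds a single value per transcript, taken to be FPKM because Cufflinks is named; the tables name no unit and hold no counts or intervals. They stop at 65535 transcripts, a spreadsheet limit, so a gene's value is the sum of its listed transcripts. The biotype in the tables is that of the gene, so rows that GENCODE 29 types as nonsense-mediated decay (11 of 166) were summed too. The 7 member rows not found in GENCODE 29 were also summed.

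Values were summed per symbol over protein_coding rows and compared as log2((MTAC-P + 1)/(PC9 + 1)) where the mean was at least 1 FPKM. No test was run. List genes absent by symbol were matched through the GENCODE gene of their transcripts; PET100 was not matched. Positions and transcript types are from GENCODE 29 (GRCh38), promoters from RefSeq. Named were, per complex, the 3 most abundant members, the highest and lowest ratios, members at 2-fold or not compared, other members by role, and the 2 highest and 2 lowest ratios per list. Some genes that this rule names are not reported here. Members, lists and alternatives were chosen with earlier results of these data known. Python 3.11.15, pandas 2.3.3, numpy 2.4.6 and matplotlib 3.10.9 were used, and the steps were tested on simulated data.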

Additional observations from a re-analysis of the deposited data

How the results depend on the processing

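The count of 2 members at least 2-fold lower became 1 with symbols on 1 row or with every coding transcript of a gene listed, 3 with a pseudocount of 0.1 (ATP5S joined), 6 at 1.5-fold and 0 at 4-fold. It became 5 with only rows that GENCODE types as coding, where NDUFA13 (-1.12), UQCRC1 (-1.21) and COX7A2 (-1.80) joined COX5B and NDUFV1. The count of 0 members at least 2-fold higher became 1 with a pseudocount of 0.1 (COX6A1P2), the most abundant transcript only (NDUFA3), centring of the median (COX6A1P2) or 1.5-fold (COX6A1P2). COX5B ranged from -1.59 to -1.53 and NDUFV1 from -1.70 to -1.13 over the alternatives. The median of all members ranged from -0.18 to -0.11, and those of complexes I, III and V stayed below 0 and moved by less than 0.1. Complex II went to -0.50 with symbols on 1 row, and complex IV to 0.00 with no filter, which adds its 6 low isoforms, and to -0.43 with all coding transcripts listed (3 genes). Regulators of biogenesis turned above 0 at a mean of at least 5 (0.014) and with the most abundant transcript only (0.044). Assembly factors did so with all coding transcripts listed (0.029) and with rows typed coding (0.00659). Glycolytic enzymes did so with symbols on 1 row (0.21), all coding transcripts listed (0.065), a common sum (0.011) and centring (0.011). With all coding transcripts listed, other respiratory chain genes stood at -0.048 and TCA cycle enzymes at -0.33 (3 genes each). Apart from fewer or other rows and genes by construction, the cause was not tested. The common sum shifted ratios by 0.02, and by -0.04 without mitochondrially encoded genes. Over 1666 recomputed values of single genes, 1639 kept the side of the fold threshold in use, 10 dropped below it and 17 passed it, and none that was called changed sign. Rows typed coding, removal of symbols that name no subunit and NDUFA4 counted with complex IV were chosen after seeing the data. No paired analysis was possible because neither line has a further library, and no replicate could be left out. Depth is unknown, so no precision can be given for members near the minimum mean.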
